A study of Mus musculus with 6 samples.

Results

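Repeated sequences leave the same distances between CpGs wherever a copy sits, so copies can be found in a methylation table without a repeat annotation. The copies described here are all runs of 6 successive CpGs that lie 2, 6, 2, 4 and 13 bp apart, read in either direction, together with every measured CpG within 300 bp of the run. The table of 8610279 CpGs held 72 such copies with 694 CpGs. They were spread over 19 chromosomes with 0 on the X chromosome, 33 reading 2-6-2-4-13 on the plus strand and 39 reading it on the minus strand. A copy held between 6 and 17 measured CpGs, with a median of 9. The spacing was chosen by measured values: earlier results of these data showed that its copies differ among themselves in Tex15KO 16, so its level in the knockout describes a chosen set.

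DNA methylation was measured by whole-genome bisulfite sequencing of male germ cells, sorted by flow cytometry for Oct4-GFP fluorescence from the testes of mouse pups on postnatal day 2.5. The 3 genotypes were Tex15KO (both alleles mutated, pups 3 and 16), Tex15HT (heterozygous, pups 7 and 18) and Tex15WT (wild type, pups 8 and 9), with 2 pups each from crosses of heterozygous parents. All pups had a mixed strain background and carried the reporter used for sorting, and each library came from 1 pup and about 10 ng of DNA. The 2 Tex15HT and the 2 Tex15WT pups are called the 4 controls below. No expression was measured, so the purity of the sorted cells could not be checked against marker genes.

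In the mouse male germ line DNA methylation is erased in the embryo and laid down again before birth. Small RNAs bound to PIWI proteins guide de novo methylation to young, transcribed retrotransposons, and TEX15 is known in mice as a nuclear factor of that pathway. A long terminal repeat (LTR) carries the promoter and the polyadenylation site of a retrotransposon, and most LTRs in the genome stand alone without the inner part of the element. Methylation of the LTR is one of the means by which its promoter is kept silent.

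No mm9 genome was used here, so the letters of the 72 copies were not read. The same spacing was sought in the 32851 promoter windows of RefSeq, each 300 bases long, on build GRCm38.p6. It was found in 7 windows (0.0213%), and 2 of them shared all 29 letters of the run, namely those of Gm46244 and Gm33462. These 2 windows were also the only ones among the 7 with further CpGs at both 10 and 22 bp before the run. The rest of the 7 held other letters at the run, with Bag5 and Coa8 sharing theirs, so the spacing alone does not fix the letters. In the mm9 table, CpGs stood at the same places in many of the 72 copies, 10 bp before the run in 38 and 22 bp before it in 40. The 2 windows are shown because they give letters to the spacing. The other 3 are windows with the core CTGGCCGGTCG, which 20 windows (0.0609%) hold on either strand, and they show how a small change in letters takes a related copy out of the set. Capitals mark CpGs, and all lines read 5′ to 3′ in the direction 13-4-2-6-2. They come from chr1:113145504-113145569 on the plus strand, chr4:7133959-7134022 on the plus strand, chr11:49598732-49598797 on the minus strand, chr4:53403776-53403829 on the minus strand and chr3:116822956-116823021 on the plus strand, in the order shown.
Gm46244: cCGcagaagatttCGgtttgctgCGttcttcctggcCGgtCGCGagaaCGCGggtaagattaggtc
Gm33462: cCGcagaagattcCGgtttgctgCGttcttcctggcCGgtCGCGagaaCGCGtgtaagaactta
Gm42075: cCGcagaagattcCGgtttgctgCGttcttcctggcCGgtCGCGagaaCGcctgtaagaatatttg
Gm12496: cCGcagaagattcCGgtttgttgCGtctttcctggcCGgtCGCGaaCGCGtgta
Gm40127: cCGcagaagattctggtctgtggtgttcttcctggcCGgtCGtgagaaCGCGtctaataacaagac

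Gm46244 and Gm33462 hold 8 CpGs in this stretch, at -22, -10, 0, 13, 17, 19, 25 and 27 bp from the first CpG of the run. Gm42075 lacks the CpG at 27. Gm12496 has all 8 CpGs but 4 bp in place of 6 bp at one distance. Gm40127 keeps 5 CpGs and lacks those at -10, 0 and 19. As background, such letters are known from the 3′ end of the LTR of IAP elements, a mouse family that is still able to move. That name comes from general knowledge and not from a repeat annotation, and no copy in mm9 was assigned to a family or to a gene here.

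The libraries held 27495658 to 52935635 calls at cytosines of CpGs, with Tex15KO 3 the lowest and Tex15KO 16 the highest. Tex15KO 3 stood apart. It had no call at 74.4% of the cytosines of the table, against 1.71% in Tex15KO 16 and 4.82% to 10.2% in the controls. Where it had 6 to 10 calls, 96.5% of its cytosines were all C or all T, against 63.1% in Tex15KO 16 and 57.8% to 68.3% in the controls. How many molecules its calls stand for was not tested. Intervals given below (95%, Wilson) cover counting error only, since no molecular identifiers tell PCR copies of a molecule from separate molecules. Upper limits given where no call was methylated likewise count each call as independent. They are too tight where calls share a molecule.

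Over all 72 copies, the methylation level (C calls over all calls) was 57.6% in Tex15KO 3 and 60.6% in Tex15KO 16. The heterozygous pups stood at 86.9% in Tex15HT 7 and 87.2% in Tex15HT 18, and the wild-type pups at 87.0% in Tex15WT 8 and 88.2% in Tex15WT 9. Both knockout pups lay below all 4 controls, and the controls lay within a narrow band. The group means were 59.1% ± 2.12 in Tex15KO, 87.1% ± 0.221 in Tex15HT and 87.6% ± 0.875 in Tex15WT (SD, n = 2 each). The difference of Tex15KO minus the 4 controls was -28.2 points, with p = 0.0667 in a two-sided exact permutation test over samples, which is the smallest value that its 15 splits allow. Tex15HT and Tex15WT differed by -0.508 points (exact permutation p = 0.667, smallest possible 0.333).

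The spacing was also tested as 1 of 662 recurring spacings in one edgeR quasi-likelihood fit with Benjamini-Hochberg adjustment. It was chosen from knockout values of these same data. The p-values of its Tex15KO contrasts, here and above, therefore describe a chosen set and are not independent support. It was lower in Tex15KO than in Tex15WT, with a difference of -28.5 points (a log2 odds ratio of -2.29, adjusted p = 0.0114), where edgeR called 5.14% of all spacings lower. Against Tex15HT the difference was -27.98 points (log2 odds ratio -2.22, adjusted p = 0.0155), where 4.68% of all spacings were called lower. Against the mean of both control genotypes the edgeR adjusted p was 0.00519, with 5.44% called lower. Tex15HT against Tex15WT gave a log2 odds ratio of -0.07 and an edgeR adjusted p of 0.9997, and 0% of the spacings were called there in either direction. limma gave adjusted p-values of 0.0171 against Tex15WT (4.38% of spacings called lower), 0.0233 against Tex15HT (3.93%) and 0.0099 against both (4.38%). The edgeR call against Tex15WT was lost when either Tex15WT pup was left out, with an adjusted p of 0.149 without Tex15WT 8 and 0.168 without Tex15WT 9. Likewise the call against Tex15HT was lost without any 1 of the 4 controls, at adjusted p-values between 0.0802 and 0.183, at differences of -28.1 to -27.8 points.

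The copies did not share one level in the knockout. In Tex15KO 16, where all 72 copies had 10 or more calls, 10 copies lay under 20%, 30 between 20% and 80%, and 32 over 80%. The median was 73.4%, the quartiles 35.3% and 93.3%, and the SD over copies 32.4 points. In the controls the SD over copies was 12.2 to 14.0 points, the medians were 90% to 93.3%, and 0 copies lay under 20%. Tex15KO 16 was under the pooled controls at 49 of the 72 copies. Tex15KO 3 covered fewer copies, with no call at 32 of them and 10 or more calls at 31. Over those 31 copies its median was 78.0% and its SD 36.8 points, with 10 copies under 50% and 15 over 80%.

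**Figure D1:**
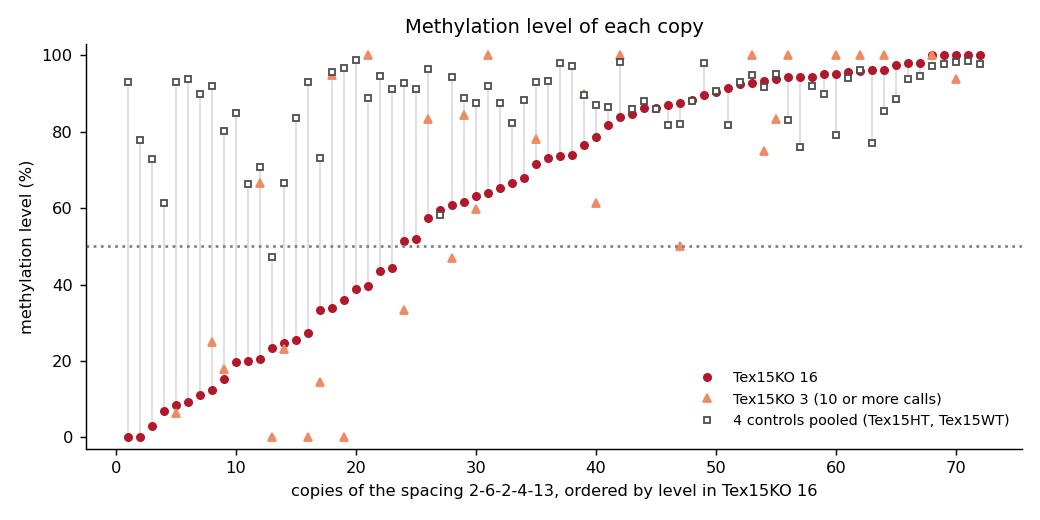
Methylation level in percent of each of the 72 copies, ordered along the horizontal axis by the level in Tex15KO 16 (dark circles). Triangles give Tex15KO 3 where it had 10 or more calls, open squares the 4 controls pooled, and the dotted line the 50% limit. The circles run over the whole scale, with none between 44.4% and 51.5%, while all squares but 1 lie above 50%.

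The spread over copies in Tex15KO 16 was wider than for 2 other repeat spacings with low levels in the knockout. The spacing was chosen for that spread, so its values from Tex15KO 16 describe the choice. Copies at low levels also have less room to differ. Of the copies that were methylated at 50% or more in the pooled controls, 22 of 71 (30.99%) were under 50% in Tex15KO 16 for 2-6-2-4-13, with an SD over copies of 32.3 points. The figure was 27 of 27 for the spacing 3-7-13-4-21, whose copies had a median of 11.5% and an SD of 7.85 points there. For 4-5-7-7-35 it was 28 of 30, with a median of 16.01% and an SD of 16.1 points. Tex15KO 3 was under 50% at 9 of 30 copies of 2-6-2-4-13 with 10 or more calls, at 23 of 24 copies of 3-7-13-4-21 and at 25 of 28 copies of 4-5-7-7-35. These are counts of copies within 1 pup, so no test over pups goes with them.

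The copies were then divided by Tex15KO 16 alone. Among the copies methylated at 50% or more in the pooled controls, 22 that lay under 50% in Tex15KO 16 are called losing copies and 49 at 50% or more are called keeping copies. The 1 remaining copy, at chr17:18134817-18134845 (mm9, as all coordinates of copies), was at 47.2% in the pooled controls. Its level was 0% of 21 calls in Tex15KO 3, which allows up to 14.3% if calls are independent, and 23.3% in Tex15KO 16. It was 83.3% in Tex15HT 7 (6 calls), 77.8% in Tex15HT 18, 26.5% in Tex15WT 8 and 42.9% in Tex15WT 9, so its wild-type pups were both below its heterozygous pups.

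The losing copies stood at 22.1% in Tex15KO 3 (19.1% to 25.5%, 633 calls), a pup that was not used to choose them. That level was 34.8% with each copy weighted equally and 12.6% over the CpGs of the runs only. The value in Tex15KO 16, which chose them, was 20.3% (1222 calls). The controls were at 83.0% in Tex15HT 7, 79.5% in Tex15HT 18, 84.0% in Tex15WT 8 and 86.9% in Tex15WT 9. By summed calls Tex15KO 3 thus lay near Tex15KO 16 and far below the lowest control. The losing copies with the most calls in Tex15KO 3 gave 167, 128, 96 and 82 of its 633 calls, and 7 of the 22 had none. Weighted equally, the losing copies with 10 or more calls stood at 21.5% in Tex15KO 16, beside the 34.8% in Tex15KO 3. The keeping copies stood at 77.2% in Tex15KO 3 (74.7% to 79.5%, 1210 calls) and 84.7% in Tex15KO 16. Their controls were at 89.0% in Tex15HT 7, 90.6% in Tex15HT 18, 90.4% in Tex15WT 8 and 89.6% in Tex15WT 9. Even the keeping copies were therefore lower in each knockout pup than in each control, by a smaller margin.

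Within each pup, the losing copies were lower than the keeping copies. The difference was -55.1 points in Tex15KO 3, against -6.04 in Tex15HT 7, -11.2 in Tex15HT 18, -6.41 in Tex15WT 8 and -2.68 in Tex15WT 9. Tex15KO 3 differed from the controls in this by -48.5 points, with p = 0.2 in a two-sided exact permutation test, the smallest that 5 splits allow. With 1 knockout pup in the test, the spread between knockout pups does not enter it. Between the control genotypes the losing copies averaged 81.2% ± 2.51 in Tex15HT and 85.5% ± 2.06 in Tex15WT (SD, n = 2 each), with both Tex15HT pups under both Tex15WT pups (exact permutation p = 0.333, the smallest possible). The keeping copies averaged 89.8% ± 1.13 in Tex15HT and 90% ± 0.575 in Tex15WT (SD, n = 2 each), and these overlapped (exact permutation p = 1).

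**Figure D2:**
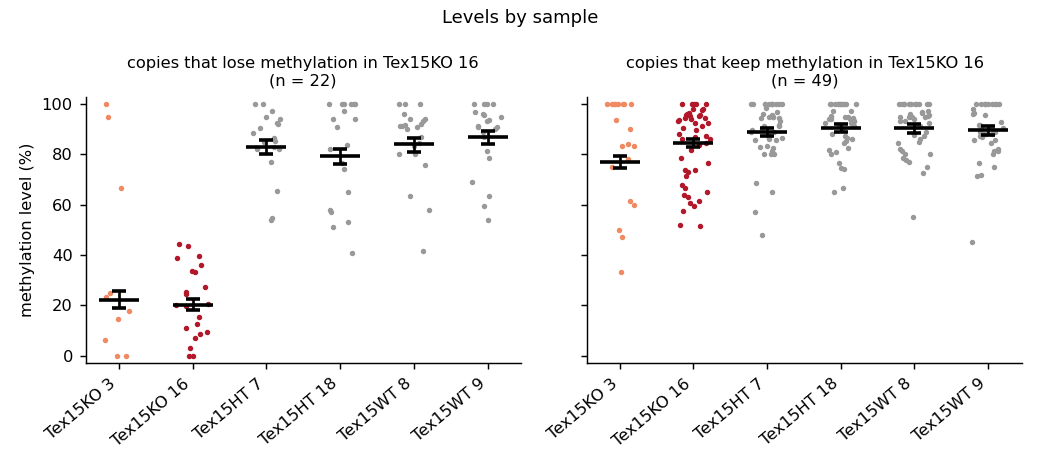
Methylation level in percent of the 22 losing copies (left) and the 49 keeping copies (right) in each sample. Dots are copies with 10 or more calls in the sample, and bars give the level over the summed calls with its 95% Wilson interval. The bars of the losing copies stand at 22.1% and 20.3% in the 2 Tex15KO pups and at 79.5% to 86.9% in the 4 controls.

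Copy by copy, Tex15KO 3 followed the division made in Tex15KO 16 with exceptions. Of the 22 losing copies it had 10 or more calls at 10, of which 7 were under 50% and 3 were at 50% or more, and their median was 20.5%. Of the 49 keeping copies it had 10 or more calls at 20, of which 2 were under 50% and 18 at 50% or more, and their median was 87.1%. It read all calls as T at 2 losing copies and 0 keeping copies, and all as C at 1 losing and 8 keeping copies. The 2 strands of Tex15KO 16 were read apart as a description within the pup that chose the spacing and the classes. That is not a check in another pup. When copies were divided on its plus strand calls, the minus strand calls read 22.1% in the losing and 75.6% in the keeping copies. When they were divided on the minus strand, the plus strand read 18.98% in the losing and 83.0% in the keeping copies. In each case only 8 losing and 16 keeping copies had 10 or more calls on the strand that was read.

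The 6 losing copies with the most calls, among those with 10 or more calls in every pup, varied in how closely the pups agreed. The copy at chr10:105028594-105028622 read 14.4% in Tex15KO 3 and 33.3% in Tex15KO 16, against 82.1% in Tex15HT 7, 57.1% in Tex15HT 18, 80.2% in Tex15WT 8 and 59.5% in Tex15WT 9. Its highest knockout value was below its lowest control. At chr15:20675679-20675707 the levels were 23.2% in Tex15KO 3 and 24.7% in Tex15KO 16, against 92.6% in Tex15HT 7, 52.9% in Tex15HT 18, 57.8% in Tex15WT 8 and 91.3% in Tex15WT 9. The controls of that copy were split across genotypes, with 1 pup of each genotype well below the other. The copy at chr1:94117536-94117564 read 25% in Tex15KO 3 (128 calls) and 12.5% in Tex15KO 16, against 82.8% in Tex15HT 7, 100% in Tex15HT 18, 93.9% in Tex15WT 8 and 93.8% in Tex15WT 9. Both knockout pups were low there and all controls were high. The copy at chr19:33089055-33089083 had 0 methylated calls of 96 in Tex15KO 3, which allows up to 3.13% if calls are independent. It read 27.3% in Tex15KO 16. Its controls lay between 85.2% and 100%.

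The other 2 of these losing copies showed the knockout pups apart from each other. At chr9:98044970-98044998 the level was 95% in Tex15KO 3 (20 calls, 76.4% to 99.1%) and 33.8% in Tex15KO 16 (71 calls, 23.9% to 45.4%), with controls between 88.5% and 100%. At chr18:52590994-52591022 it was 100% in Tex15KO 3 (13 calls) and 39.6% in Tex15KO 16 (53 calls), with controls between 74.1% and 95%. Tex15KO 3 lay within the controls at the first of these copies and above them at the other, while Tex15KO 16 lay below every control at both. Tex15KO 3 had the fewest or nearly the fewest calls of all pups at both, and the part of its sparse coverage in this was not tested.

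The 6 keeping copies with the most calls also ranged from full to partial methylation. The copy at chr1:53295154-53295182 read 75.0% in Tex15KO 3 and 93.2% in Tex15KO 16, with controls between 86.2% and 94.4%. At chr14:114589776-114589804, a copy with 17 CpGs, the level was 50% in Tex15KO 3 and 87.5% in Tex15KO 16, with controls between 74.7% and 90.5%. The copy at chr18:75266759-75266787 read 100% in Tex15KO 3 and 83.9% in Tex15KO 16, with controls between 93.3% and 100%. In these 3 copies at least 1 knockout pup lay within the range of the controls. The other 3 were lower in both knockout pups than in every control while staying above or near 50%. At chr12:92791954-92791982 the level was 59.8% in Tex15KO 3 and 63.1% in Tex15KO 16, with controls between 84.6% and 94.9%. At chr15:38552139-38552167 it was 78.0% in Tex15KO 3 and 71.6% in Tex15KO 16, with controls between 86.1% and 96.0%. At chr5:17428323-17428351 it was 47.0% in Tex15KO 3 (149 calls) and 60.9% in Tex15KO 16 (23 calls), with controls between 88.0% and 100%.

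No copy lay between 44.4% and 51.5% in Tex15KO 16, but copies lay close to either side of the 50% limit. Just under it in Tex15KO 16 lay copies at 44.4% (chr12:33790222-33790250), 43.6% (chr18:57198294-57198322) and 39.6% (the copy on chromosome 18 named above). Just over it lay copies at 51.5% (chr9:13548732-13548760), 52.0% (chr9:19232984-19233012) and 57.5% (chr12:88678116-88678144). Their pooled controls were at 89.0% to 94.7% for the 3 just under the limit and 91.3% to 96.5% for the 3 just over it. Tex15KO 3 had 10 or more calls at 3 of these 6 copies, and read 100% at the one just under and 33.3% and 83.3% at the 2 just over.

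Tests of single copies were limited by depth. Only 22 of the 72 copies (8 losing, 14 keeping) had 10 or more calls in every pup, and these entered an edgeR quasi-likelihood fit together with 1 kb tiles of the rest of the genome, 330102 features in all. edgeR called 0 of the 22 copies in Tex15KO against the 4 controls, with adjusted p-values from 0.0579 to 1 after Benjamini-Hochberg adjustment, where it called 0.037% of all features lower and 0.000606% higher. Before adjustment, with p under 0.05, 8 of the 22 were lower and 0 higher, against 1.73% of all features lower and 1.4% higher. The copies belong to a spacing chosen from knockout values of these same data. Their excess over all features in Tex15KO contrasts, here and below, therefore describes a chosen set and is not independent support. The features were also not matched to the copies by their level in the controls. limma on log2 ratios called 4 of the 22 lower and 0 higher, where it called 0.271% of all features lower and 0.00576% higher. All 4 were losing copies, which their low level in Tex15KO 16, used both for the class and in the test, goes far to fix. They were the copies named above on chromosomes 19 (a difference of -80.6 points, limma adjusted p = 0.0124, edgeR 0.0609) and 1 (-73.9 points, limma 0.0175, edgeR 0.169), and 2 more that were picked out after their values were seen. The copy at chr6:138171838-138171866 read 6.25% in Tex15KO 3 and 8.57% in Tex15KO 16, with controls between 90.6% and 100% (limma adjusted p = 0.00463, edgeR 0.0579). The copy at chr3:116437484-116437512 read 0% of 15 calls in Tex15KO 3, which allows up to 20% if calls are independent. It read 35.8% in Tex15KO 16, with controls between 92.0% and 100% (limma adjusted p = 0.0110, edgeR 0.129).

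Against single control genotypes edgeR again called 0 of the 22 copies, with 0.00939% of all features lower and 0.000303% higher against Tex15WT, and 0.00485% lower and 0.000909% higher against Tex15HT. At an unadjusted p under 0.05 edgeR had 8 copies lower and 0 higher against Tex15WT, with 1.26% of all features lower and 1.45% higher. Against Tex15HT it had 7 lower and 0 higher, with 1.27% and 0.938% of all features. Both counts come from the chosen set, so their excess over all features is not independent support. limma called 2 lower against Tex15WT (0.0985% of all features lower, 0.000303% higher) and 1 lower against Tex15HT (0.0612% lower, 0.00151% higher). In Tex15HT against Tex15WT edgeR and limma called 0 copies, where edgeR called 0.00121% of features lower. At an unadjusted p under 0.05 both tools also had 0 copies. The shares of all features there were 0.188% lower and 0.35% higher in edgeR, and 0.442% lower and 1.12% higher in limma. A count of 0 among 22 copies is near those shares. The median difference of the 22 copies in Tex15KO against the 4 controls was -17.7 points, beside a median of 2.17 points over all features. That gap likewise describes a chosen set. Tested without Tex15KO 16, so that Tex15KO 3 stood alone for the knockout, edgeR called 6 of the 22 copies lower, 5 of the losing and 1 of the keeping ones, but in that fit it also called 4.48% of all features lower and 2.35% higher. Without Tex15KO 3 it called 4 copies lower, with 0.185% of all features lower and 0.00182% higher.

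Levels were similar along the run in Tex15KO 16, whose low level in the losing copies follows from how they were chosen. At the 8 aligned CpGs the losing copies ranged from 14.5% to 23.6% in Tex15KO 16, with 81.8% to 91.2% in the pooled controls. The lowest value was at 19 bp and the highest at 13 bp. In Tex15KO 3 the same places ranged from 1.75% (57 calls, at 0 bp) to 36.2% (47 calls, at -10 bp), all below every control. The keeping copies ranged from 67.8% to 93.3% in Tex15KO 3 and from 82.9% to 90.6% in Tex15KO 16, with 89.0% to 96.3% in the pooled controls.

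**Figure D3:**
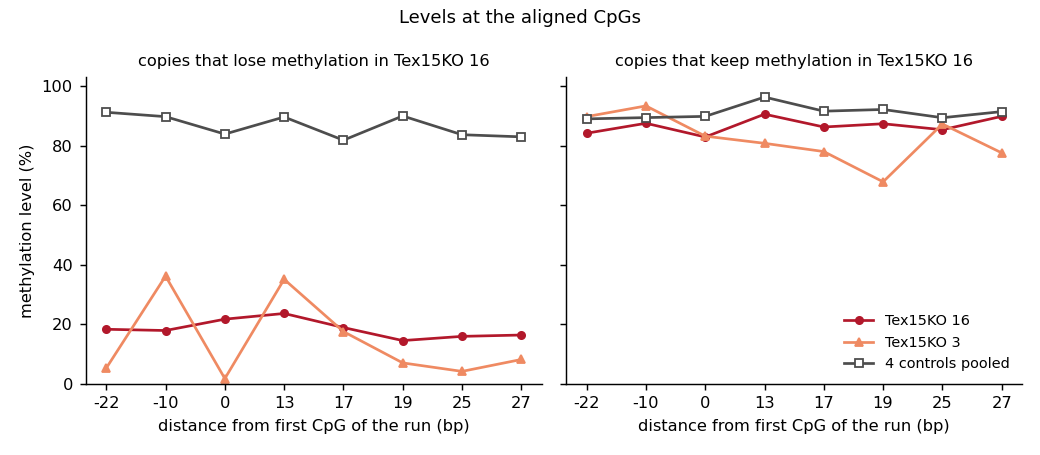
Methylation level in percent at the 6 CpGs of the run (0 to 27 bp) and at the CpGs 10 and 22 bp before it, for losing copies (left) and keeping copies (right). Points give calls summed over copies in Tex15KO 16, in Tex15KO 3 and in the 4 controls pooled. In the losing copies all 8 places lie at or below 36.2% in both knockout pups and at or above 81.8% in the controls.

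Copies at intermediate levels did not hold CpGs at 0% beside CpGs at 100%, though many held a CpG at one of these ends. In Tex15KO 16, 24 copies had a run level between 20% and 80% and 4 or more run CpGs with 3 or more calls. In 12 of them every such CpG lay strictly between 0% and 100%. The others held a CpG at 0% or a CpG at 100%, and 0 of the 24 held both. The lowest CpG of such a copy had a median of 33.3% and the highest a median of 66.7%. Whether single molecules were methylated throughout could not be read from summed calls.

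The loss had edges. In the losing copies the run with the 22 bp before it read 14.2% in Tex15KO 3 and 18.4% in Tex15KO 16, against 86.1% in the pooled controls. On the side before the run, the 3 copies with CpGs 22 to 100 bp away read 93.8% in Tex15KO 3 (16 calls) and 26.9% in Tex15KO 16 (26 calls), against 73.7% to 95.2% in the controls. At 100 to 300 bp the levels were 43.1% in Tex15KO 3 and 27.4% in Tex15KO 16, against 73.9% in the pooled controls. At 300 to 500 bp the levels were 20.4% in Tex15KO 3 and 24.0% in Tex15KO 16, against 78.1% in the controls. At 500 to 1000 bp they were 46.5% in Tex15KO 3 and 35.7% in Tex15KO 16, against 80.2%. At 1000 to 2000 bp they were 80.9% in Tex15KO 3 and 85.4% in Tex15KO 16, against 89.8%. Tex15KO 16 was thus low in each bin out to 1 kb before the run, Tex15KO 3 in each but the nearest, and both were nearer to the controls beyond 1 kb. Within 300 bp of the run, on either side, the low level of Tex15KO 16 follows from how the losing copies were chosen.

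On the side after the run the levels at 100 to 300 bp were 26.2% in Tex15KO 3 and 23.8% in Tex15KO 16, against 77.9% in the controls. At 300 to 500 bp they were 11.8% in Tex15KO 3 (68 calls) and 41.2% in Tex15KO 16 (68 calls), against 80.6%. At 500 to 1000 bp Tex15KO 16 had returned to 78.1% (201 calls), against 85.0% in the controls, while Tex15KO 3 had only 21 calls there and read 28.6%. At 1000 to 2000 bp both knockout pups were high, at 99.4% in Tex15KO 3 and 90.6% in Tex15KO 16, against 91.2%. In Tex15KO 16 the level at 500 to 1000 bp was 35.7% before the run and 78.1% after it. In Tex15KO 3 the order was the other way, at 46.5% before the run and 28.6% after it. In the keeping copies the knockout pups differed on the side before the run. At 500 to 1000 bp Tex15KO 3 read 92.9% (239 calls) and Tex15KO 16 73.9%, against 83.7% to 92% in the controls. At 300 to 500 bp Tex15KO 3 read 64% (50 calls) and Tex15KO 16 73.0%, against 82.8% to 92.1%. At 100 to 300 bp Tex15KO 3 read 90.8% and Tex15KO 16 71.3%, against 86.4% to 97.3%. Tex15KO 3 read 45.5% (121 calls) at 28 to 100 bp after the run of the keeping copies, where Tex15KO 16 read 81.6% and the controls 81.7%.

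**Figure D4:**
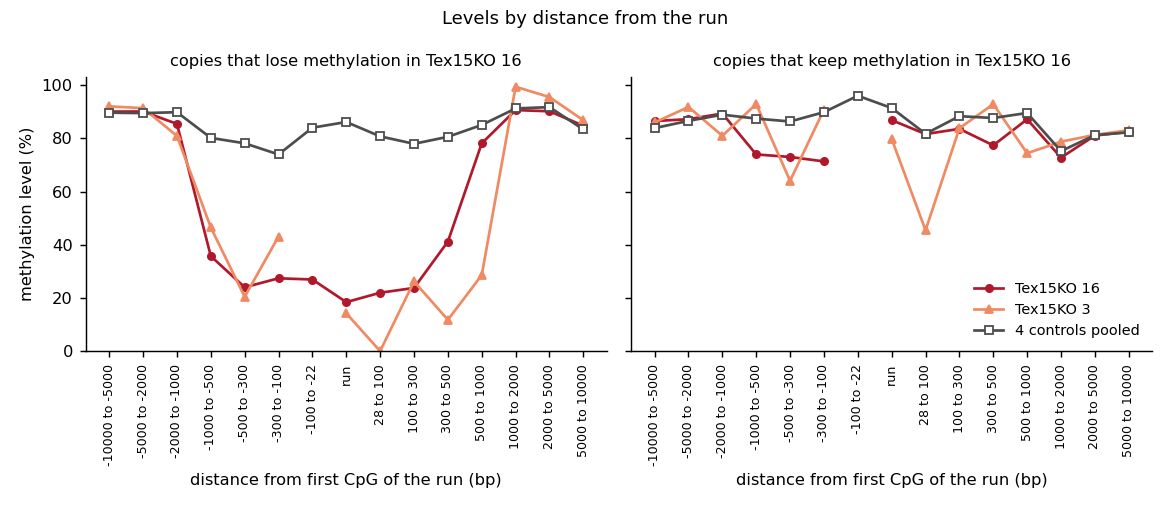
Methylation level in percent by distance in bp from the first CpG of the run, in the reading direction 13-4-2-6-2, for losing copies (left) and keeping copies (right). Points give calls summed over copies in Tex15KO 16, in Tex15KO 3 (both shown only with 20 or more calls) and in the 4 controls pooled. In the losing copies the knockout lines dip around the run and come near the controls 1000 bp or more away on both sides. At 1000 to 2000 bp before the run both knockout pups still lie under every control.

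The copies also differed in which further CpGs they held. A CpG 10 bp before the run, which the spacing does not ask for, was in the table for 38 copies. These read 50.3% in Tex15KO 3 and 54.7% in Tex15KO 16, against 86.8% to 89.4% in the 4 controls. The 34 copies without it read 64.0% in Tex15KO 3 and 69.1% in Tex15KO 16, against 84.0% to 88.1% in the controls. By summed calls both knockout pups were lower in the copies that held it, and the controls of the 2 sets overlapped. By the median copy with 10 or more calls only Tex15KO 16 was lower, at 64.6% with it (38 copies) and 83.2% without it (34 copies), while Tex15KO 3 read 80.7% with it (16 copies) and 66.7% without it (15 copies). Of the copies with it 16 lost and 22 kept methylation (42.1% lost), and of those without it 6 lost and 27 kept it (18.2% of 33 lost). Put the other way, 16 of 22 losing copies (72.7%) and 22 of 49 keeping copies (44.9%) held it, and 11 losing and 13 keeping copies held both this CpG and the one at 22 bp. This feature was picked after values were seen and was not tested. A CpG can be missing from the table because its letters differ or because it was not covered.

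Losing copies held a median of 11 measured CpGs and keeping copies 8. Their calls in the pooled controls had medians of 113.5 in losing and 96 in keeping copies, and their control levels medians of 89.4% in losing and 91.3% in keeping copies. Within 2.5 kb the median number of CpGs was 24 around losing and 22 around keeping copies. Losing copies lay on 13 chromosomes, with 4 of 7 copies on chromosome 6, 3 of 7 on chromosome 9 and 1 of 9 on chromosome 1. The controls themselves varied more at losing copies. Where all 4 controls had 10 or more calls, the gap between the highest and the lowest control had a median of 17.1 points over 18 losing copies and 12.4 points over 29 keeping copies, and it passed 30 points at 4 losing copies and 1 keeping copy.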

How the data were processed

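The authors deposited 1 table of raw counts for all 6 samples, with coverage, C calls and T calls at each cytosine of a CpG, per the file headers. The submitters' processing notes name build mm9 and the tools methylKit, BSMAP and Bismark without role or version, and per the labels' protocols an unmethylated lambda spike of 0.5% was added. For duplicate removal and conversion, the sources used here give nothing. Strands were merged (8610279 CpGs from 10025464 cytosines), and a level is C calls divided by C plus T calls. A copy is a set of runs within 1 kb of each other, and each of the 72 copies held 1 run.

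edgeR 4.0.16 in R 4.3.3 (glmQLFit, glmQLFTest, common dispersion, sample intercepts, the 6 samples fitted jointly) was run on methylated and unmethylated counts. It covered 330102 features (copies, and 1 kb tiles of 3 or more CpGs outside them, with 10 or more calls in every sample), and separately 662 spacings found at 10 or more places, with distances up to 999 bp. A call is an adjusted p under 0.05. For single copies the prior degrees of freedom were infinite, so a copy's own spread over pups does not enter its p. The fit was also run on simulated counts that gave all samples the same spread. Those runs do not show how the fit deals with a pup like Tex15KO 3. limma 3.58.1 on log2((C + 1)/(T + 1)) was an alternative. Single values per sample were compared by exact permutation of samples.

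Members, classes, lists and tests were chosen with earlier results of these data known. Named copies are the 6 losing and 6 keeping copies with most calls, the 3 nearest the limit on each side, copies called by edgeR and copies under 50% in the controls. Alternatives changed the window (run only, 150 bp, 600 bp), the class limit (a drop of 30 points, or under 30% and over 70%), the calls needed (3 or 30), the strand, the weighting, the top 0.1% of coverage, the tool and the samples. The libraries are of separate pups, so their spread includes differences between animals.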

Additional observations from a re-analysis of the deposited data

How the results depend on the processing

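The deficit of Tex15KO over all copies kept its sign under every alternative run, between 23.7 and 29.7 points. Levels in Tex15KO 3 moved most. For losing copies the main value of 22.1% became 12.6% with run CpGs only, 16.2% with 150 bp, 28.6% with a 30-point drop as the limit, 26.1% with 30 calls and 34.8% with copies weighted equally. For keeping copies the main 77.2% became 85.0% with the 30-point drop, 87.6% with 30% and 70% limits, 71.7% and 85.5% when classed on the plus and the minus strand, and 82.0% with equal weights. Classing on the plus strand gave 13 losing copies, and on the minus strand 28 keeping copies. Tex15HT minus Tex15WT in keeping copies, -0.16 points, changed sign to 0.46 on the minus strand and 0.34 with equal weights, and ranged from -0.95 to 0.64 with 1 control left out. With 1 sample left out the spacing differed by -29.98 to -26.99 points against Tex15WT and by -29.47 to -26.48 against Tex15HT; Tex15HT minus Tex15WT ranged from -1.13 to 0.11. The adjusted p where these calls were lost was 0.0802 to 0.183. Single copies called lower by limma numbered 2 of 22 against Tex15WT, 1 against Tex15HT and 4 against all controls. limma called 0.0985%, 0.0612% and 0.271% of all features lower there. Windows of 600 bp let 34 copies be tested. edgeR then called 1 of them lower against all controls, with 0.0391% of all features lower and 0.000606% higher. With 1 sample left out edgeR called 0 to 6 in each of these 3 comparisons, a pup left alone being assumed to vary like the other groups; where it called 6 it called 3.09% to 4.48% of all features lower. With 1 sample left out, the difference of Tex15KO minus the controls changed sign at 5 named copies. It ranged from -32.9 to 4.62 points (chromosome 14) and -16.4 to 1.75 (chromosome 1) for keeping copies, highest without Tex15KO 3; the copy on chromosome 1 gave 2.12 with run CpGs only. It ranged from -48.4 to 12.0 (losing) and -13.6 to 2.48 (keeping) on chromosome 18 and -60.1 to 1.07 (losing) on chromosome 9, highest without Tex15KO 16. The causes were not tested. The classes could not be made without Tex15KO 16. No paired analysis was possible because the groups share no replicate number.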

Other observations

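The search was repeated with 1 CpG of the run left out, with the same rule for methylated controls and on run CpGs only. A CpG left out inside the run had to be absent from the table. The first or the last CpG, when left out, could still be present, so those 2 sets include the full runs. These searches were chosen after the values of the full run were seen. The full run had 22 of 70 copies (31.4%) under 50% in Tex15KO 16. With the last CpG left out the search gave 30 of 92 (32.6%), and with the first left out 54 of 170 (31.8%). Runs without the CpG at 19 bp had 12 of 44 (27.3%). Runs without the CpG at 17 bp had 6 of 18 (33.3%), without that at 13 bp 4 of 23 (17.4%) and without that at 25 bp 2 of 12 (16.7%). The sets of 92 and 170 include the full runs, so shares near that of the full run are partly built in. With the first CpG left out there were 284 places, at 51.8% to 58.4% in the controls. Whether all of them belong to the same repeat was not tested.

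With a CpG required at 10 bp before the run, the share was 16 of 38 (42.1%) for the full run. It was 21 of 46 (45.7%) with the last CpG left out and 23 of 54 (42.6%) with the first left out. Both of these sets again include the full runs. The share was 6 of 12 (50%) without the CpG at 19 bp and 5 of 11 (45.5%) without that at 17 bp. The 2 smallest sets, of 4 copies each, had 1 (without the CpG at 25 bp) and 0 (without that at 13 bp). These counts are of copies within 1 pup, Tex15KO 16. In Tex15KO 3 the run level with the CpG at 10 bp required was 49.7% for the full run. It was 49.6% with the last CpG left out and 37.6% with the first left out. The controls of these sets read 88.6% to 92.1%, 88.6% to 92.1% and 72.0% to 80.6%.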
